A study of Mus musculus with 4 samples.

Results

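The transcription factor p53, its inhibitors and targets, and the core regulators of apoptosis were examined as 1 set of 35 genes in mouse embryos that expressed either of 2 forms of LHX1. The genes were taken by symbol from a list that was chosen with earlier results of these data known. All 35 were found among the 39179 genes of the count tables, and 33 passed a filter on low counts and were tested. Bbc3 and Fas did not pass it and are described by their counts.

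RNA sequencing was performed on 4 individual chimeric embryos staged at E7.75, during gastrulation. Embryonic stem cells (ESCs) with a FLAG-tagged, doxycycline-inducible Lhx1, a LIM homeodomain transcription factor gene, had been injected into host embryos of an ARC x RLZRFP cross at the 8-cell stage. The ESC contribution is described as high, but host cells remain in such chimeras. Of the embryos, 2 carried FLAG-Lhx1 and 2 carried FLAG-Lhx1-mt, an altered form that the study also writes as a deletion. Which part of LHX1 is altered, which promoter drives the transgene, how many ESC clones were used and the exact share of host tissue are stated in none of the sources used here. All 4 embryos had been exposed to doxycycline, which the females received in sweetened water at 2 mg/mL from 24 hours before collection. Collection was at E8.5, and the stage of E7.75 reflects a delay in development of roughly 1 day. An embryo without induction was not analysed here. Each file summed to 21267116 to 30434442 counts. Lhx1 itself was not called between the groups (log2 fold 0.11 ± 0.16, SE, edgeR adjusted p = 0.733), and its count may include both transgene and endogenous RNA. Of the epiblast and germ layer markers, Epcam, Sox2, T, Mesp1 and Foxa2 were detected in every embryo, whereas the globin genes Hbb-bh1, Hba-x and Hbb-y of the blood list had at most 4 counts in any embryo.

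In unstressed cells p53 is kept low by MDM2, a ubiquitin ligase, and its relative MDM4. When DNA is damaged or growth is disturbed, p53 accumulates and switches on genes that stop the cell cycle, repair DNA or start apoptosis through the BCL2 family at mitochondria. In the early mouse embryo, cells of the epiblast are known to be close to the threshold of mitochondrial apoptosis, and p53 takes part in removing less fit cells as gastrulation begins.

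Expression is given in CPM, the counts of a gene per 1000000 counts of its library after TMM scaling. In FLAG-Lhx1 embryos, the p53 target genes Aen and Phlda3 were lower than in FLAG-Lhx1-mt embryos, by 1.96-fold and 2.57-fold, and Gadd45a was 3.22-fold higher. The other 30 tested genes were not called, among them Trp53 itself, its inhibitors Mdm2 and Mdm4, and the classical target Cdkn1a. A gene was called when its Benjamini-Hochberg adjusted p over all tested genes was under 0.05 in edgeR's quasi-likelihood test. The 3 called genes are 9.09% of the 33 tested, and 6.17% of the 15822 genes tested were called. By direction, 1 of the 33 was higher against 2.62% of all genes, and 2 were lower against 3.55%. Leaving out FLAG-Lhx1-mt replicate 2 raised the number of called genes among the 35 to 7, from a background of 9.16% of all genes, and Aen was called in each of 12 alternative analyses. For a single gene, permuting 2 against 2 embryos exactly (two-sided) gives no p smaller than 0.333, and a call therefore depends on the spread that edgeR estimates jointly from all genes.

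Across the 33 genes the median log2 fold (FLAG-Lhx1 minus FLAG-Lhx1-mt) was -0.16, against 0.01 over all tested genes. The fold was negative for 21 of them (63.6%, against 49.1% of all tested genes). The 2 groups did not overlap for 18 of the 33, a share of 54.5%, and 52.2% of all tested genes had no overlap. Out of the 33 genes, 13 had FLAG-Lhx1 below FLAG-Lhx1-mt without overlap and 5 had it above. Out of all tested genes, 25.8% had it below and 26.4% above. At an unadjusted p under 0.05 there were 7 lower and 3 higher of the 33, against 11.3% and 9.94% of all tested genes. Because the list was chosen with earlier results of these data known, these comparisons describe the list and do not test it.

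**Figure D1:**
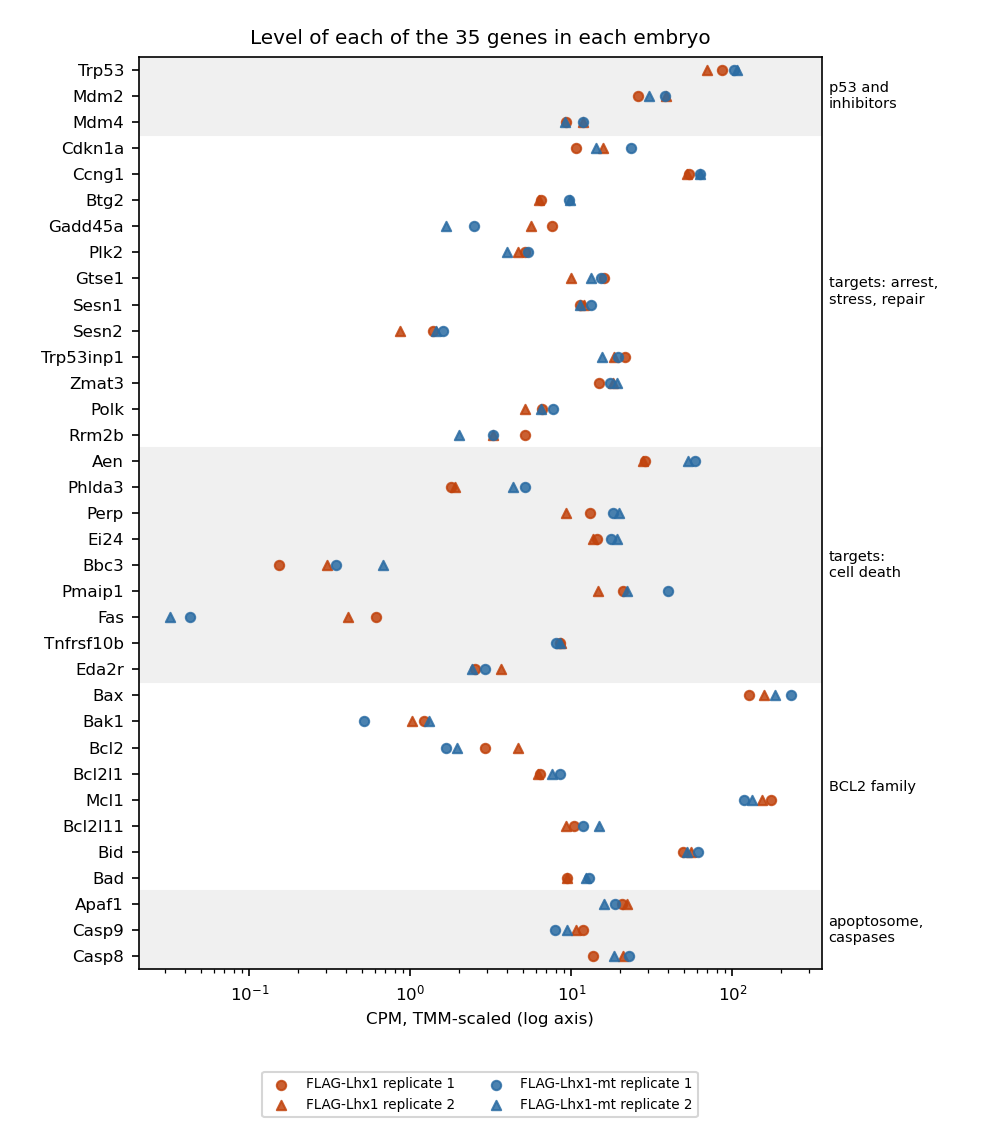
Level of the 35 genes in each of the 4 embryos, in CPM on a log axis, with the genes grouped by role. Circles and triangles are replicates 1 and 2, red is FLAG-Lhx1 and blue is FLAG-Lhx1-mt; Aen and Phlda3 show the red points to the left of the blue ones, and Gadd45a the reverse.

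Levels of different genes were compared per kilobase of annotated exon. On this scale Bax, the pore-forming executor of mitochondrial apoptosis, was the most abundant of the 35, at a mean of 110.8 CPM per kb over the 4 embryos. It was followed by Mcl1, a BCL2 relative that protects cells (42.2), Trp53 (22.6), the cyclin gene Ccng1 (16.5) and Bid (15.4). The median of the 35 genes was 2.47 CPM per kb. The least abundant were Fas (0.132), Bbc3 (0.173), Bcl2 (0.306), Rrm2b (0.375) and Sesn2 (0.379). Bax thus stood far above its fellow executor Bak1, which had 0.422 CPM per kb, and Mcl1 above the other protective genes Bcl2l1 (1.56) and Bcl2.

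Among the target genes that act in cell death, Aen encodes a nuclease that is moved to the nucleus and helps to degrade DNA in apoptosis. Aen (ENSMUSG00000030609, chr7:78895854-78911209 of GRCm38, plus strand) was at 28.8 and 27.7 CPM in the FLAG-Lhx1 pair (replicates 1 and 2), whereas the FLAG-Lhx1-mt pair had 58.2 and 52.85 CPM. Both FLAG-Lhx1 embryos lay well below both FLAG-Lhx1-mt embryos, and the embryos within each group were close together. The means were 28.3 ± 0.741 and 55.5 ± 3.81 CPM (SD, n = 2 each). The log2 fold was -0.97 ± 0.16 (SE), with a 95% interval from -1.31 to -0.63 and an edgeR adjusted p of 0.00244. It ranged from -1.06 to -0.91 over the alternative analyses.

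Phlda3 encodes a small pleckstrin homology domain protein that holds back AKT, a kinase that promotes survival. The gene (ENSMUSG00000041801, chr1:135766119-135769136, plus strand) was at 1.79 and 1.88 CPM in the FLAG-Lhx1 pair (replicates 1 and 2), whereas the FLAG-Lhx1-mt pair had 5.15 and 4.31 CPM. The groups did not overlap, but the gene was expressed at a low level. Its log2 fold was -1.36 ± 0.35 (SE, 95% interval -2.11 to -0.61, edgeR adjusted p = 0.0331). The call was lost when either FLAG-Lhx1 embryo was left out, at -1.36 (adjusted p = 0.115) without replicate 1 and at -1.38 (adjusted p = 0.0998) without replicate 2. It was also lost with offsets for transcript length and GC content (-1.13, adjusted p = 0.099).

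Gadd45a encodes a stress protein of the growth arrest and DNA damage family that binds cell cycle and repair proteins, and it can also be induced without p53. The gene (ENSMUSG00000036390, chr6:67035096-67037457, minus strand) was at 7.59 and 5.65 CPM in the FLAG-Lhx1 pair (replicates 1 and 2), whereas the FLAG-Lhx1-mt pair had 2.49 and 1.66 CPM. Both FLAG-Lhx1 embryos were above both FLAG-Lhx1-mt embryos. The log2 fold was 1.69 ± 0.34 (SE, 95% interval 0.96 to 2.41, edgeR adjusted p = 0.00964). Without FLAG-Lhx1 replicate 1 it was 1.42 and not called (adjusted p = 0.0629). The gene E230016M11Rik on the other strand covers 19.1% of the exon bases of Gadd45a, and reads there may stem from either gene.

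**Figure D2:**
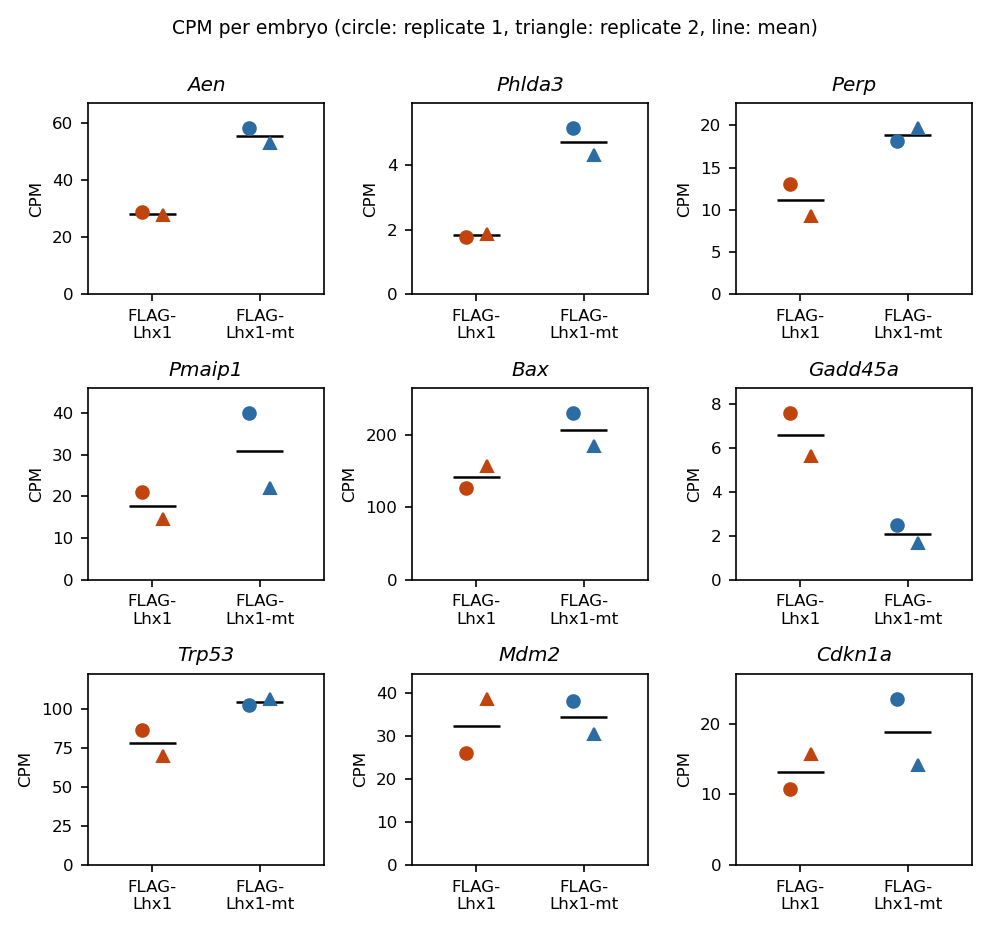
CPM in each embryo for the 3 called genes, for Perp, Pmaip1 and Bax, and for Trp53, Mdm2 and Cdkn1a, with a linear axis from 0 in each panel. Circles are replicate 1, triangles are replicate 2 and the line is the mean of a group; in Aen, Phlda3 and Gadd45a the groups are apart, while in Mdm2 and Cdkn1a they overlap.

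The regions at the start sites of the called genes are shown because p53 binds DNA directly. Its site is built of a pair of decamers, each with the consensus of 3 purines, C, a pair of A or T bases, G and 3 pyrimidines, and a decamer is its own reverse complement in this pattern. RefSeq promoter windows on GRCm38.p6, from 250 bases before to 50 after a start, were held for 29 of the 35 genes. Capitals mark each exact match to the p53 decamer.
Aen, chr7:78895677-78895976, plus strand: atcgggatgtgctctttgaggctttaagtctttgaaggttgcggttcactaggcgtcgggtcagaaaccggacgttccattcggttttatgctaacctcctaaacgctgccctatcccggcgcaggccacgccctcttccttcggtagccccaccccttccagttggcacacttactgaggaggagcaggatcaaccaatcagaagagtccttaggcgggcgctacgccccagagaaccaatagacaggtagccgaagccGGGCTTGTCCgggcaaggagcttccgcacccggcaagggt
Phlda3, chr1:135765835-135766134, plus strand: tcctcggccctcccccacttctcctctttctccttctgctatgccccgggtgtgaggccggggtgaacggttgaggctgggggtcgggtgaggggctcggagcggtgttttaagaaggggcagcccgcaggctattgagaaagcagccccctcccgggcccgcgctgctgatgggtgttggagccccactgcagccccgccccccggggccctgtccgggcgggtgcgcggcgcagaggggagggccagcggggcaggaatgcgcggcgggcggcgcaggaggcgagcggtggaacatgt
Gadd45a, chr6:67037358-67037657, minus strand: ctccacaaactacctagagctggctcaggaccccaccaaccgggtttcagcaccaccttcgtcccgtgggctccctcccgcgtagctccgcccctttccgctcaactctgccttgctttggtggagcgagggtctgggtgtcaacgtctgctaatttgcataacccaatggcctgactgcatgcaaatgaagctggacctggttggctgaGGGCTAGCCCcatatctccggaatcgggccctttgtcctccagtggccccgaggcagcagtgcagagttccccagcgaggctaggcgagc
Aen holds a decamer at positions 11 to 20, counted from 1 at the start site of the window shown, and Gadd45a one at -40 to -31. Another window of Aen, chr7:78895808-78896107, has a start further downstream, and the same decamer lies upstream of that start. The window of Phlda3 holds no whole decamer, which says only that these letters are not in it. The last bases of that window fit the beginning of a decamer, and the bases beyond its end were not searched. Of the 3 called genes, the pair with a whole match moved in opposite directions. Sites outside the windows were not searched, and binding of p53 was not tested.

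Over all 29 genes with a window, 11 (37.9%) held an exact p53 decamer in at least 1 window, and 9.55% of 27025 genes in the table did. Counted by window, it was 12 of 41 (29.3%) against 8.36% of 32851, with the site of Aen counted in both of its windows. The genes were listed as p53 targets in large part, so this share describes the list and not the response of the embryos. Besides Aen and Gadd45a they were Bax, Ccng1, Cdkn1a, Ei24, Gtse1, Mdm2, Polk, Sesn1 and Trp53. The matches of the apoptosis gene Bax, the classical targets Cdkn1a and Mdm2, and Trp53 are shown with 10 bases on either side, in the same notation.
Bax, chr7:45467080-45467109, minus strand: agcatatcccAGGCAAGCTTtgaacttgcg
Cdkn1a, chr17:29090896-29090925, plus strand: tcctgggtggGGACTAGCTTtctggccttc
Cdkn1a, chr17:29090918-29090947, plus strand: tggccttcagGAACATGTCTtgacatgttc
Mdm2, chr10:117710925-117710954, minus strand: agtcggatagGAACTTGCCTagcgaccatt
Trp53, chr11:69580274-69580303, plus strand: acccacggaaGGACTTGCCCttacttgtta
Cdkn1a was the only one of the 29 in which 2 exact decamers had at most 13 bases between them, at -73 to -64 and -51 to -42 of its upstream start, an arrangement found in 0.074% of all genes. The bases shown right after its second decamer depart from the pattern only at their first base, so the rule of exact matches left them out. None of the 4 genes was called between the groups. The homeodomain core TAATTA, searched on both strands, was in no window of the 29 genes and in 6.12% of all genes.

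The remaining target genes of cell death were Perp, Ei24, Pmaip1, Tnfrsf10b and Eda2r, which were tested and not called, and the untested Bbc3 and Fas. Perp encodes a membrane protein of desmosomes that takes part in p53-dependent death. It was at 13.1 and 9.26 CPM in FLAG-Lhx1 and at 18.1 and 19.7 CPM in FLAG-Lhx1-mt (log2 fold -0.76 ± 0.23, SE, edgeR adjusted p = 0.0595). Pmaip1 encodes NOXA, a BH3-only protein that blocks MCL1. It was at 21.0 and 14.6 CPM in FLAG-Lhx1 and at 39.9 and 22.05 CPM in FLAG-Lhx1-mt (log2 fold -0.79 ± 0.26, adjusted p = 0.0812). The groups did not overlap for either gene, but FLAG-Lhx1-mt replicate 2 of Pmaip1 was close to FLAG-Lhx1 replicate 1. Each was called in 5 of the 12 alternatives. Pmaip1 had a log2 fold of -1.17 without FLAG-Lhx1-mt replicate 2 and of -0.31 without FLAG-Lhx1-mt replicate 1.

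Ei24, which encodes a membrane protein of the endoplasmic reticulum, was at 14.5 and 13.7 CPM against 17.6 and 19.2 CPM (log2 fold -0.38 ± 0.20, edgeR adjusted p = 0.293). Among the receptors of this group, Tnfrsf10b, the TRAIL receptor, was at nearly 1 level in all 4 embryos, from 7.99 to 8.60 CPM. Its log2 fold was 0.05, with an interval from -0.47 to 0.57. Eda2r, a receptor for an ectodysplasin form, lay between 2.40 and 3.66 CPM with overlapping groups. The death receptor gene Fas had 16 and 8 counts in FLAG-Lhx1, and 1 and 1 in FLAG-Lhx1-mt. Its pooled CPM was 14.3 times as high in FLAG-Lhx1, with an exact 95% interval of 3.55 to 125 that covers counting error only and not the spread between embryos. Bbc3, which encodes the BH3-only protein PUMA, had 4 and 6 counts in FLAG-Lhx1 and 8 and 21 in FLAG-Lhx1-mt (ratio 0.41, counting interval 0.178 to 0.866). Neither gene was called in the 4 alternatives in which it could be tested.

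Trp53 was at 86.4 and 69.9 CPM in the FLAG-Lhx1 pair (replicates 1 and 2), whereas the FLAG-Lhx1-mt pair had 102.7 and 106.5 CPM. Both FLAG-Lhx1 embryos were below both FLAG-Lhx1-mt embryos, yet the fold was small and not called (log2 -0.42 ± 0.15, SE, 95% interval -0.74 to -0.10, edgeR adjusted p = 0.119). No alternative called it. Since p53 is controlled mostly through the stability of the protein, its RNA is no measure of its activity. Mdm2 was at 26.1 and 38.7 CPM against 38.2 and 30.5 CPM, and Mdm4 at 9.31 and 11.8 CPM against 11.8 and 9.17 CPM. The embryos of the groups interleaved for both inhibitors, and the log2 folds were -0.09 ± 0.20 and 0.01 ± 0.25. The processed pseudogene Trp53-ps had 0 counts in every embryo and Mdm4-ps at most 4.

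The other target genes act in arrest, stress and repair, and besides Gadd45a none of the 11 was called. Cdkn1a, the p21 inhibitor of cyclin-dependent kinases, was at 10.7 and 15.8 CPM in FLAG-Lhx1 and at 23.5 and 14.1 CPM in FLAG-Lhx1-mt. The groups overlapped because replicate 1 of FLAG-Lhx1-mt was high and replicate 2 was not (log2 fold -0.51 ± 0.26, SE, edgeR adjusted p = 0.28). Cdkn1a was called only without FLAG-Lhx1-mt replicate 2, at -0.85 (adjusted p = 0.00669), and without the other embryo of that group it was -0.11. Btg2, an antiproliferative gene that is also an immediate early gene, was at 6.45 and 6.26 CPM against 9.71 and 9.84 CPM. Its embryos were close within each group, but it was not called (-0.62 ± 0.25, adjusted p = 0.159). Ccng1 was at 53.6 and 52.1 CPM against 62.7 and 63.0 CPM, a small difference without overlap (-0.25 ± 0.15, adjusted p = 0.355).

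Rrm2b, which encodes a p53-induced subunit of ribonucleotide reductase, was at 5.15 and 3.26 CPM in FLAG-Lhx1 and at 3.26 and 2.01 CPM in FLAG-Lhx1-mt (log2 fold 0.69 ± 0.38, SE, edgeR adjusted p = 0.316). Its 2 groups met at the same level. The sestrins, which restrain mTORC1 under stress, had log2 folds of -0.07 (Sesn1) and -0.42 (Sesn2), the latter at only 0.865 to 1.59 CPM. The folds of the polymerase gene Polk (-0.28), the RNA-binding gene Zmat3 (-0.16), the mitosis gene Gtse1 (-0.14), the kinase gene Plk2 (0.08) and the autophagy and death gene Trp53inp1 (0.20) were also small. In this role as a whole, 8 of 12 folds were negative and the median was -0.15.

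The BCL2 family decides whether mitochondria release cytochrome c, with BAX and BAK1 as executors, BCL2, BCL2L1 and MCL1 as guardians and the BH3-only proteins as triggers. None of its 8 members on the list was called. Bax was at 127 and 157 CPM in the FLAG-Lhx1 pair (replicates 1 and 2), whereas the FLAG-Lhx1-mt pair had 230 and 184 CPM. Both FLAG-Lhx1 embryos were lower, and the adjusted p lay just above the threshold (log2 fold -0.54 ± 0.16, SE, 95% interval -0.88 to -0.21, edgeR adjusted p = 0.0543). Bax was called in 8 of the 12 alternatives, with folds from -0.71 to -0.32. Among the alternatives that kept every embryo, it was not called with upper-quartile scaling or with the length and GC offsets. The gene model Gm45808 on the same strand shares 12.2% of the exon bases of Bax. Bak1 had overlapping groups between 0.515 and 1.31 CPM, and 25.5% of its exon bases lie under a gene on the other strand.

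Among the guardians, Mcl1 was at 175 and 152 CPM in FLAG-Lhx1 and at 118 and 132 CPM in FLAG-Lhx1-mt (log2 fold 0.39 ± 0.15, SE, edgeR adjusted p = 0.134). Bcl2 was at 2.90 and 4.68 CPM against 1.67 and 1.95 CPM (1.05 ± 0.39, adjusted p = 0.129). For both genes the FLAG-Lhx1 embryos were above the FLAG-Lhx1-mt embryos, without a call in any of the 12 alternatives. Bcl2l1, which encodes BCL-XL, lay the other way, at 6.41 and 6.21 CPM against 8.46 and 7.57 CPM (-0.34 ± 0.26, adjusted p = 0.482). Of the BH3-only triggers, Bcl2l11, which encodes BIM, was at 10.4 and 9.31 CPM against 11.9 and 14.8 CPM (-0.44 ± 0.23, adjusted p = 0.292). Bad was at 9.43 and 9.36 CPM against 12.8 and 12.3 CPM (-0.42 ± 0.23, adjusted p = 0.305), and Bid overlapped between 49.5 and 61.4 CPM (-0.12 ± 0.16). Of the exon bases of Bad, 20.5% lie under a gene of the other strand, and for Bid it is 17.7%.

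Downstream of mitochondria, APAF1 and caspase 9 form the apoptosome, and caspase 8 starts apoptosis from death receptors. Apaf1 was at 20.6 and 22.1 CPM in FLAG-Lhx1 and at 18.6 and 15.8 CPM in FLAG-Lhx1-mt (log2 fold 0.31 ± 0.20, SE, edgeR adjusted p = 0.394). Casp9 was at 11.8 and 10.7 CPM against 7.90 and 9.43 CPM (0.38 ± 0.24, adjusted p = 0.39). The groups did not overlap for these 2 genes and the folds were small. Casp8 overlapped, at 13.6 and 21.0 CPM against 22.8 and 18.5 CPM (-0.26 ± 0.23, adjusted p = 0.565).

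**Figure D3:**
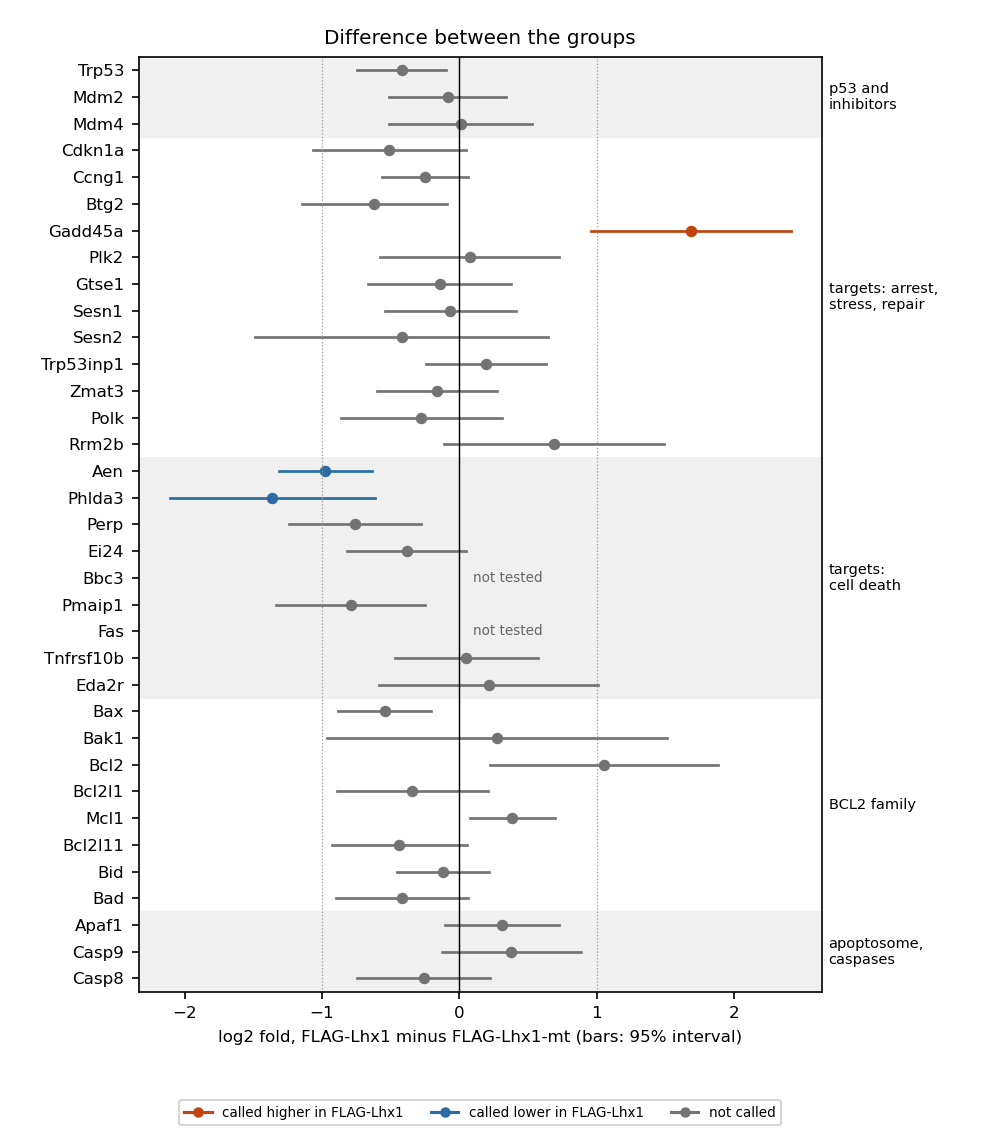
Log2 fold of each gene (FLAG-Lhx1 minus FLAG-Lhx1-mt) with its 95% interval, grouped by role, with dotted lines at a 2-fold change. Aen and Phlda3 (blue) and Gadd45a (red) were called, 30 genes (grey) were not, and Bbc3 and Fas were not tested.

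For 21 of the 30 genes that were not called, the 95% interval lay within a 2-fold change in either direction, so a change of that size was outside what these embryos allow under the model. The other 9 were Cdkn1a, Btg2, Sesn2, Rrm2b, Perp, Pmaip1, Eda2r, Bak1 and Bcl2, for which a 2-fold difference remained within the interval. The widest intervals belonged to genes near or under 1 CPM, with Bak1 from -0.96 to 1.51 and Sesn2 from -1.48 to 0.65.

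Other genes of these pathways were counted from whole lists. Of 21 tested further p53 targets, 1 rose and none fell (4.76%, near the 6.17% of all tested genes), with a median log2 fold of 0.01. The one that rose was Ppm1d, which encodes the phosphatase WIP1 that switches p53 off, at 44.9 and 44.3 CPM in FLAG-Lhx1 against 29.8 and 28.0 CPM in FLAG-Lhx1-mt. Its log2 fold was 0.63 ± 0.16 (SE, edgeR adjusted p = 0.0335), and the call was lost without FLAG-Lhx1 replicate 1 (0.59) or 2 (0.65) and with no count filter (0.56). None of 21 tested modifiers of p53 and kinases of the damage response was called, with 0 at an unadjusted p under 0.05 (21.3% of all tested genes). Their folds were positive for 15 and negative for 6, with a median of 0.20. The smallest p-values among them were those of Chek2 (-0.39 ± 0.19, adjusted p = 0.244) and Atr (0.31 ± 0.18, adjusted p = 0.339). Chek2 was called without FLAG-Lhx1-mt replicate 2 (-0.60) and Atr without FLAG-Lhx1-mt replicate 1 (0.57).

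Of 9 tested further members of the BCL2 family, 2 rose and 1 fell (33.3%, against 6.17% of all tested genes). Bmf, a BH3-only gene linked to loss of attachment, was at 8.93 and 9.67 CPM in FLAG-Lhx1 against 3.44 and 3.16 CPM in FLAG-Lhx1-mt. Its log2 fold was 1.49 ± 0.28 (SE, edgeR adjusted p = 0.00553), and no alternative ended the call. Bnip3l, a receptor for the removal of mitochondria, was at 276 and 271 CPM against 198 and 180 CPM (0.53 ± 0.14, adjusted p = 0.0349). Bok, a relative of Bax, was at 8.05 and 4.58 CPM against 11.1 and 16.0 CPM (-1.09 ± 0.29, adjusted p = 0.0381). The groups did not overlap for any of the 3 genes. The calls of Bnip3l and Bok were both lost without replicate 2 of FLAG-Lhx1 (0.56 and -0.74) or of FLAG-Lhx1-mt (0.45 and -0.81) and with the length and GC offsets (0.46 and -0.82). Bok was also not called with upper-quartile scaling (-1.05), nor Bnip3l when FLAG-Lhx1 replicate 1 was left out (0.49).

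No gene was called among 17 tested caspases, inhibitors of apoptosis and effectors, where 4 had an unadjusted p under 0.05, or among 11 tested genes of the death receptor pathway, where 3 had. Over all tested genes 21.3% had such a p, so both counts were near that background. In the first list the smallest p-values were those of the inhibitor genes Birc2 (log2 fold 0.40 ± 0.16, SE, edgeR adjusted p = 0.156) and Birc6 (0.37 ± 0.15, adjusted p = 0.159). In the second they were those of the TNF receptor gene Tnfrsf1a (-0.81 ± 0.29, adjusted p = 0.109) and of Traf2 (-0.63 ± 0.24, adjusted p = 0.145). Without FLAG-Lhx1-mt replicate 2, Birc6 (0.51) and Traf2 (-0.86) were called.

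**Figure D4:**
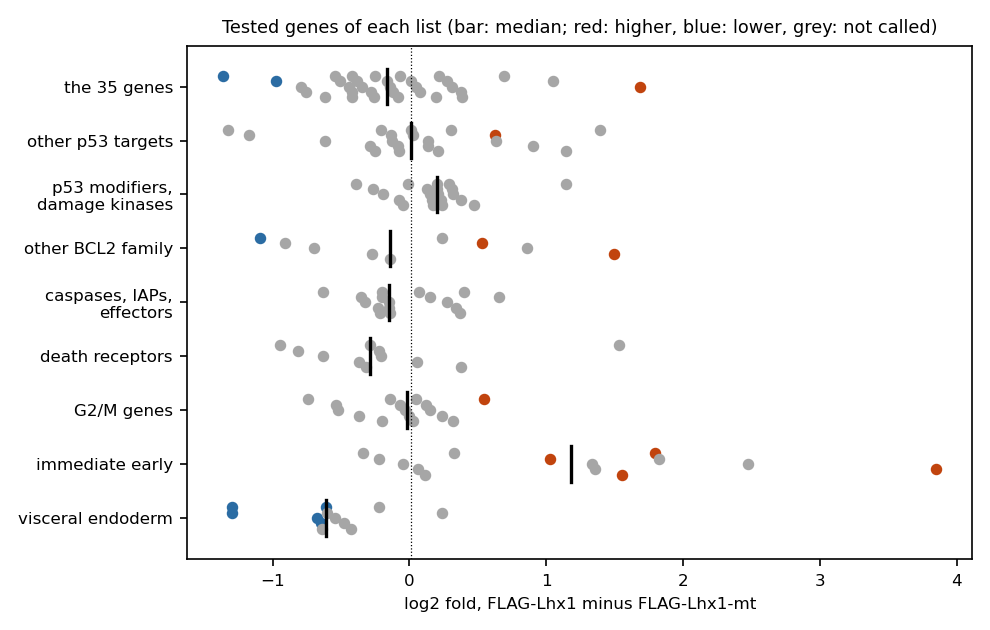
Log2 folds of the tested genes of each list, with a bar at the median of the list and a dotted line at the median of all tested genes. Red and blue mark genes called higher and lower in FLAG-Lhx1; the 35 genes have a median of -0.16 and 3 called genes, and the visceral endoderm list lies lower with a median of -0.61.

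In bulk embryos, fewer cells of a type and less RNA per cell cannot be told apart. Markers of visceral endoderm, a tissue around the epiblast, moved with the groups: 5 of 12 fell and none rose, among them Apoa1 and Apoa4. That is 41.7% of the list, against 6.17% of all tested genes. Of the exon bases of Apoa4, 69.8% lie under genes of the other strand. The summed level of the 12 markers was 2125 and 2469 CPM in FLAG-Lhx1 and 4152 and 3575 CPM in FLAG-Lhx1-mt, with no marker at 0. Btg2 (-0.62, not called) resembles the immediate early genes in its regulation but lay in the other direction from those called. Of 14 tested immediate early genes, 4 rose and none fell (28.6% called). The smallest p-values among them were those of Fos (log2 fold 3.85) and Klf4 (1.56, not called without FLAG-Lhx1 replicate 2, at 1.44). The sum of that list was 114 and 112 CPM against 94.0 and 73.7 CPM. Of 16 genes of the G2 phase and mitosis, Bub1 rose (0.54), which is 6.25% of the list and near the share over all tested genes. That call was lost with the length and GC offsets (0.44) and without FLAG-Lhx1 replicate 1 (0.55), its replicate 2 (0.51) or FLAG-Lhx1-mt replicate 2 (0.49). The sums of the list overlapped between 3580 and 3988 CPM. Of 10 epiblast and germ layer genes, 1 rose (Sox2, not called without FLAG-Lhx1 replicate 1, at 0.75) and 3 fell (among them Mesp1), 40% of the list. Of 9 tested trophoblast genes, 1 fell (11.1%), Eomes (-3.12), which the primitive streak also expresses. Leaving out FLAG-Lhx1-mt replicate 2 moved Eomes to -1.94, and leaving out replicate 1 of that group moved it to -3.76, with a call both times. The sums of the list were 33.1 and 31.9 CPM in FLAG-Lhx1 and 63.5 and 174 CPM in FLAG-Lhx1-mt. Eomes alone was at 13.2 and 9.31 CPM in FLAG-Lhx1 and at 43.2 and 153 CPM in FLAG-Lhx1-mt, and it made up the gap between these sums. Of the 9 tested trophoblast folds, 6 were positive, with a median of 0.41. None of 3 blood, 7 decidual and 4 leukocyte genes was called, and their sums overlapped between the groups. The summed mitochondrial transcripts overlapped between 26686 and 32779 CPM. Satellite-like gene models took 9.93% and 16.99% of the counts in FLAG-Lhx1 and 9.07% and 7.10% in FLAG-Lhx1-mt. Leaving them out gave 4 called genes among the 35, with Bax (-0.54, edgeR adjusted p = 0.0436) beside Aen, Phlda3 and Gadd45a. The part of the visceral endoderm, trophoblast and immediate early genes in the folds of Aen, Phlda3 and Gadd45a was not tested.

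The calls that depended on the analysis are seen side by side for 7 genes. Aen was called in 12 of 12 alternatives, Gadd45a in 11, Phlda3 in 9, Bax in 8, Perp and Pmaip1 in 5 each and Cdkn1a in 1. The sign of the fold was the same in every alternative for each of the 7. For the genes whose groups do not overlap, that was largely fixed in advance when an embryo was left out. Read against all genes, the 35 held 4 called genes with DESeq2 size factors (6.68% of all genes called), 3 with upper-quartile scaling (5.48%), 4 with limma-voom (6.44%) and 4 without satellite-like genes (6.78%). With no count filter they held 6 (4.41%), with DESeq2's Wald test 6 (9.15%), with the length and GC offsets 2 (3.43%) and with a replicate block 5 (7.19%). Without FLAG-Lhx1 replicate 1 or 2 they held 3 each time (3.73% and 3.1%), without FLAG-Lhx1-mt replicate 1 they held 4 (9.56%) and without its replicate 2 they held 7 (9.16%).

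**Figure D5:**
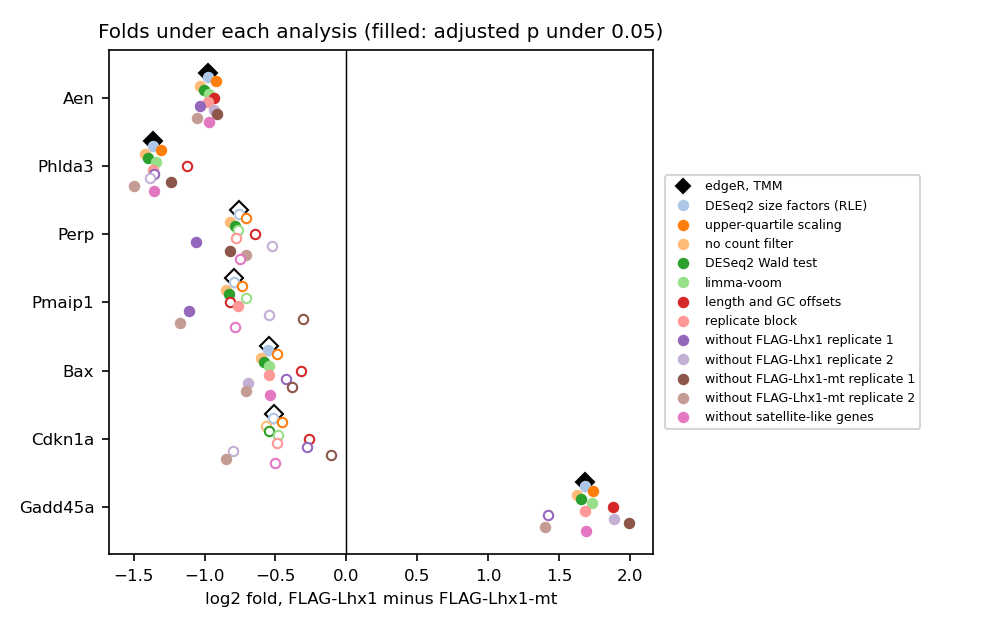
Log2 folds of 7 genes under the main analysis (black diamond) and 12 alternatives (coloured points), filled where the adjusted p was under 0.05. Aen is filled throughout, and Bax, Perp, Pmaip1 and Cdkn1a change between filled and open.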

How the data were processed

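Gene counts of 4 individual embryos, 2 per group, were used as deposited. The file headers call the values read counts, and they are whole numbers without normalization. The submitters' processing notes name STAR, featureCounts, Subread, GRCm38 and mm10. No source used here states a version or a strand setting, so reads of overlapping genes on opposite strands cannot be told apart. Geo-seq libraries were made with 10 cycles of pre-amplification, per the labels' protocols. Molecular identifiers are not mentioned in them. Counting intervals and floors therefore cover counting error only, and 3 counts correspond to 0.0959 to 0.153 CPM.

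Symbols, positions and lengths were those of GENCODE vM21 (GRCm38), where 96.2% of the IDs were found. The other IDs took 0.179% to 0.210% of the counts. Genes were filtered with filterByExpr (minimum count 10, minimum total count 15) and scaled by TMM. Groups were compared with edgeR 4.0.16 (R 4.3.3, glmQLFTest, group only). A standard error is the size of the log2 fold divided by the root of its F value, and 95% intervals use the t distribution with the 2 residual and 13.4 prior degrees of freedom. CPM are TMM-scaled, and means carry the SD of 2 embryos. RNA was taken from single embryos, per the labels, and no 2 libraries agreed within sampling noise (chi-square per degree of freedom 31.0 to 120).

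The members and all gene lists were chosen with earlier results of these data known. Named genes are all 35 members, Lhx1, from each pathway list up to 4 called genes or the 2 with the smallest p, and from each context list up to 2 called or the 1 with the smallest p. Epcam, T, Foxa2 and the globin genes were named as tissue markers outside this rule. Where a context list had no call, the gene it picked was Tal1 (blood, log2 fold 0.86), Wnt4 (decidua, 1.13), Cd68 (leukocytes, -0.37) or mt-Atp6 (mitochondria, 0.35). Alternatives used DESeq2 1.42.0 (Wald test), limma 3.58.1 (voom), other scalings, no filter, offsets for length and GC content, a replicate block and leaving out each embryo. Leaving out satellite-like genes (13) was added after seeing the data. On simulated counts for the 15822 genes of this comparison, edgeR called 54 of 100 genes given a log2 change of 1, and 87 of 100 given 2. Of its 147 calls, 6 were false. The changed genes were drawn only from genes above a cutoff on mean count, so recovery of genes with fewer counts was not simulated. The simulated spread was the one estimated from these data, without a trend with length or GC content.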

Additional observations from a re-analysis of the deposited data

How the results depend on the processing

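Aen kept its direction and its call under every alternative run. Among the 35 genes, 3 were called in the main analysis, 6 with no count filter, 6 with DESeq2's Wald test and 2 to 4 with limma-voom, both other scalings, the length and GC offsets and without satellite-like genes. Leaving out an embryo gave 3 to 7, the highest without FLAG-Lhx1-mt replicate 2. Over all genes, 976 were called in the main analysis, 542 with the length and GC offsets, and 521 to 1648 with an embryo left out. The labels do not say whether replicate numbers pair the embryos. Deviations from the group means correlated at 0.02 between same-numbered embryos over all tested genes. A pairing that acts on part of the genes was not tested. The replicate block gave 1138 calls over all genes and 5 among the 35, with Bax and Pmaip1 added. Folds that changed sign lay between -0.37 and 0.28 in the main analysis, and no reversed value was called. They were those of Mdm4 (-0.052 with no count filter, -0.026 with DESeq2, -0.19 with the offsets), Gtse1 (0.068), Trp53inp1 (-0.053) and Bid (0.054) with the offsets, and Tnfrsf10b (-0.010 with no count filter). With an embryo left out, sign changes were seen for Mdm2 (-0.38 to 0.14), Mdm4 (-0.18 to 0.19), Plk2 (-0.15 to 0.31), Gtse1 (-0.55 to 0.16), Sesn1 (-0.19 to 0.041), Eda2r (-0.062 to 0.44), Bak1 (-0.23 to 1.10), Cd68 (-1.1 to 0.13) and Lhx1 (-0.067 to 0.29). The cause of these shifts was not tested. No scaling moved the median of all genes by over 0.1. Over all tested genes, the log2 fold had a Spearman correlation of 0.245 with transcript length and of -0.163 with GC content. Folds of genes under about 1 CPM are limited by depth.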
